A study of Sus scrofa with 23 samples.

Results

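PDK4, UCP3 and ANGPTL4 are 3 genes of the change from burning glucose to burning fat, and this account follows them in pigs from late gestation to 188 days of age. The members were all probe sets with 1 gene symbol in the platform annotation where that symbol was PDK4, UCP3 or ANGPTL4. There were 6 such probe sets, 2 for each gene, of 24123 probe sets on the array (23999 without the Affymetrix controls) and of 6765 genes that had a symbol of their own. The genes were chosen by their signals at the 4 stages, which were known beforehand, so the differences between stages are a description of them and carry no test. What the choice did not use is how the genes varied among animals of 1 stage, how the probe sets of a gene compared, and what the other genes of their pathways did.

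The study measured gene expression with a porcine Affymetrix array in 23 samples, 1 array per sample, from the progeny of German Landrace gilts that were fed a low-protein (LP) diet in gestation. The 5 fetal samples date from day 94 after conception (94 dpc), and the others, 6 per age, from days 1, 28 and 188 after birth (1 dpn, 28 dpn and 188 dpn), as the abbreviations are usually read. Below, "at birth" is short for the step from 94 dpc to 1 dpn. This step also holds the end of gestation. No sample was taken within it, so when in it a gene changed is not known. All groups shared the breed and the diet, so age is the only contrast that the labels give. Diet is not compared and sex is not analysed here. Offspring of 3 gilts were taken per stage and the dam of an animal is not labelled, so animals of a stage can share a dam, and p-values that treat them as independent can be too small.

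The samples were labelled liver, whereas the title of the series names muscle. The 10 measured of 13 skeletal muscle markers stood at a median percentile of 99.5 to 99.9 of all probe sets in every sample, and the 15 measured of 16 hepatocyte markers at 15.4 to 84.1. The tissue is therefore described below by its stage only. Each array had a trimmed mean signal of 500.1 to 500.2, and the median signal ran from 121 to 169. Signals of BioDn, a control probe set of the array, followed stage in part. They were 6352 to 10020 at 94 dpc and 16535 to 27491 at 1 dpn, with no overlap. At 28 dpn they were 9262 to 20094 and at 188 dpn 14913 to 17347. For Dap, another control, the signal ratio of the 5′ to the 3′ probe set was 0.0511 to 0.0977 at 28 dpn. At 188 dpn it was 0.264 to 0.359, with no overlap. At 94 dpc and 1 dpn the Dap ratio ran from 0.0622 to 0.409 and from 0.0657 to 0.361. The part of array handling in the differences between stages was not tested. At 1 dpn, replicates 2, 4 and 5 stood apart: their signal ratio of the 5′ to the 3′ probe set for GAPDH, a control for RNA length, was 0.0868 to 0.148, against 1.09 to 1.29 in the other 20 samples. Differences of the 3 genes and counts of the gene lists that involve 1 dpn are given with and without them, and those of other genes named where the value moved by over 1.5 times. In a tissue sample, fewer cells of a type and less RNA per cell cannot be told apart.

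PDK4 encodes a kinase of the mitochondrial matrix that phosphorylates and switches off pyruvate dehydrogenase, and so spares glucose when fat is burned. UCP3 encodes a carrier of the inner mitochondrial membrane that is expressed mainly in skeletal muscle and brown fat and belongs to the uncoupling protein family. ANGPTL4 encodes a secreted protein that inhibits lipoprotein lipase, the enzyme that frees fatty acids from circulating triglycerides. All of them are known targets of the PPAR nuclear receptors, which bind fatty acids, and are known to be induced in muscle by fasting.

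PDK4 was low before birth and high at every stage after it. Its brighter probe set, Ssc.1121.1.S1_at, gave signals of 474, 634, 500.1, 208 and 318 at 94 dpc, replicates 1 to 5. At 1 dpn the lowest signal was 6699, the median 9139.8 and the highest 23936. The signals at 28 dpn ran from 2597 over a median of 6115 to 12195, and those at 188 dpn from 5929 over a median of 17575 to 26406. No sample taken after birth lay as low as any fetal sample, while the ranges of the 3 later stages overlapped.

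The stage means for PDK4 were 427 ± 166 (SD, n = 5), 11742 ± 6415 (SD, n = 6), 6646 ± 3521 (SD, n = 6) and 16476 ± 8305 (SD, n = 6), in order of age. On the log2(signal + 16) scale, which is used for all differences here and shrinks those of dim probe sets, PDK4 was higher by 4.68 ± 0.43 (SE) at 1 dpn than at 94 dpc, or 25.7-fold. The difference from 1 dpn to 28 dpn was -0.86 ± 0.41, and from 28 dpn to 188 dpn it was 1.29 ± 0.41, or 2.45-fold. At 188 dpn PDK4 stood 34.7-fold above 94 dpc, a log2 difference of 5.12 ± 0.43. Ordered by mean log2 level, the stages ran 94 dpc, 28 dpn, 1 dpn, 188 dpn. The samples separated fully at the first step of this order, from 94 dpc to 28 dpn; at the next steps 2 of 6 and then 1 of 6 samples of the higher stage lay above all samples of the lower one.

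The second PDK4 probe set, Ssc.10131.1.A1_at, repeated this course at lower signal. It gave 106, 120.4, 91.4, 50.0 and 78.1 at 94 dpc, and its stage means were 89.2 ± 27.0, 2983 ± 1285, 1812 ± 785 and 5961 ± 3429. Its log2 difference was 4.77 ± 0.41 from 94 dpc to 1 dpn, -0.72 ± 0.40 from 1 dpn to 28 dpn and 1.56 ± 0.40 from 28 dpn to 188 dpn. Both probe sets of PDK4 thus had the same order of stages.

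UCP3 was higher at each later stage. Its brighter probe set, Ssc.174.1.S2_at, gave 67.4, 37.7, 66.8, 6.55 and 107 at 94 dpc. At 1 dpn the signals ran from 334 over a median of 539 to 792, at 28 dpn from 756 over 958 to 1138, and at 188 dpn from 786 over 2495 to 3879.96. All 1 dpn samples lay above all fetal samples, and at each of the 2 following steps 5 of 6 samples of the older stage lay above all of the younger. The pig at 188 dpn that overlapped with 28 dpn was replicate 4.

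The stage means for UCP3 were 57.0 ± 37.4, 549 ± 158, 939 ± 128 and 2332 ± 1170 (SD, n = 5 and then 6 each). These correspond to log2 differences of 3.11 ± 0.38 from 94 dpc to 1 dpn (8.62-fold), 0.80 ± 0.36 from 1 dpn to 28 dpn (1.74-fold) and 1.12 ± 0.36 from 28 dpn to 188 dpn (2.17-fold). Over the whole span UCP3 was 32.5-fold higher at 188 dpn than at 94 dpc, 5.02 ± 0.38 on the log2 scale. Some fetal signals lay near or below the 16 added before taking logs, so the fold against 94 dpc depends on that constant; with 64 added in its place the difference at birth was 2.36.

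The second UCP3 probe set, Ssc.174.1.S1_at, gave 66.5, 23.8, 19.4, 17.1 and 15.6 at 94 dpc, and means of 28.5 ± 21.5, 285 ± 159, 724 ± 76.8 and 1247 ± 437 over the stages. It placed the stages in the same order. The step from 1 dpn to 28 dpn was larger by this probe set, 1.46 ± 0.31 (2.76-fold) with no overlap between the samples, and the step from 28 dpn to 188 dpn smaller, 0.71 ± 0.31.

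ANGPTL4 had another course: by its brighter probe set it was highest at 1 dpn and 28 dpn and lower again at 188 dpn. This probe set, Ssc.8980.1.A1_at, gave 253, 165, 143, 82.3 and 150.2 at 94 dpc. Signals ran from 407 over a median of 937 to 1737 at 1 dpn, from 1057 over 1201 to 1528 at 28 dpn, and from 192 over 461 to 874 at 188 dpn. All 1 dpn samples lay above the fetal ones, all 188 dpn samples lay below those of 28 dpn, and 1 sample of 188 dpn, replicate 4, fell within the fetal range.

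The stage means for ANGPTL4 were 159 ± 61.3, 1058 ± 506, 1252 ± 195 and 484 ± 229. The log2 differences were 2.54 ± 0.34 from 94 dpc to 1 dpn (5.82-fold), 0.38 ± 0.33 from 1 dpn to 28 dpn and -1.46 ± 0.33 from 28 dpn to 188 dpn, which is 2.75-fold lower. Between 94 dpc and 188 dpn a difference of 1.46 ± 0.34 (2.74-fold) was left. In order of level the stages ran 94 dpc, 188 dpn, 1 dpn, 28 dpn, and none of the 3 neighbouring steps in this order separated all samples. The levels at 1 dpn and 28 dpn differed by little more than the SE of the difference.

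The second ANGPTL4 probe set, Ssc.17345.1.S1_at, was dimmer and much more scattered at 1 dpn. Its signals were 119.8, 194, 45.6, 76.6 and 68.3 at 94 dpc and 1014, 81.2, 733, 97.7, 62.9 and 376 at 1 dpn, replicates in order. At 28 dpn it gave 480.1 ± 76.4 and at 188 dpn 272 ± 99.4. Its mean log2 level was 7.98 at 1 dpn and 8.10 at 188 dpn. The 2 probe sets of ANGPTL4 thus differed in their order of stages, though both were highest at 28 dpn. The samples of the second probe set are compared next. Its samples overlapped in all comparisons made, with log2 differences of 1.25 ± 0.52, 0.95 ± 0.50 and -0.84 ± 0.50 over the 3 successive steps.

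**Figure D1:**
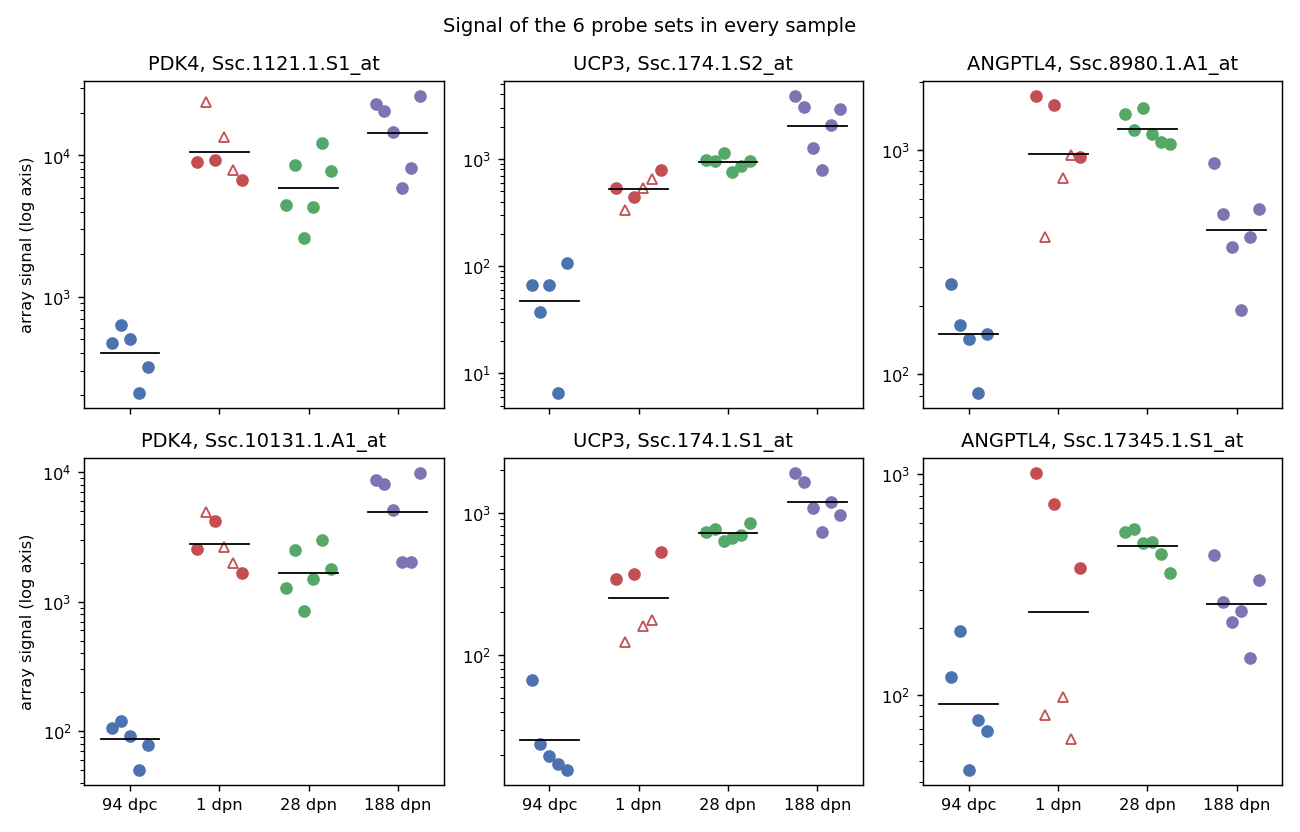
Signal of each of the 6 probe sets of PDK4, UCP3 and ANGPTL4 (log axis) in every sample at 94 dpc (n = 5), 1 dpn, 28 dpn and 188 dpn (n = 6 each). Points are samples, open triangles are the 3 samples of 1 dpn with a low GAPDH ratio, and horizontal lines are stage means of log2(signal + 16) turned back to signal. PDK4 and UCP3 are highest at 188 dpn, whereas the mean of ANGPTL4 is highest at 28 dpn.

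Counted over the 6 probe sets, samples of 1 dpn lay wholly above those of 94 dpc for 5, where 4.2% of all probe sets were separated in that way. From 1 dpn to 28 dpn 1 probe set was wholly higher (4.14% of all), from 28 dpn to 188 dpn 1 was wholly lower (6.41% of all), and between 94 dpc and 188 dpn 4 were wholly higher (10.7% of all). Since the genes were chosen with these contrasts known, the shares give the background only.

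The 3 samples of low GAPDH ratio did not stand apart in all 6 probe sets alike. For Ssc.17345.1.S1_at of ANGPTL4 they gave 62.9 to 97.7, against 376 to 1014 in the other 1 dpn samples, and for Ssc.174.1.S1_at of UCP3 123 to 177 against 343 to 533. The brighter probe sets of these genes overlapped or nearly met between both kinds of sample: 407 to 947 against 926 to 1737 for ANGPTL4, and 334 to 644 against 446 to 792 for UCP3. PDK4 was not lower in these samples, at 7929.7 to 23936 against 6699 to 9340.2 by Ssc.1121.1.S1_at.

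The ratio of the brighter to the dimmer probe set of a gene made the same contrast within a sample. For ANGPTL4 it was 5.01 to 15.0 in the 3 samples and 0.801 to 3.15 in the other 20 samples. For UCP3 it was 2.72 to 3.63 in the 3 samples, against 1.2 to 1.57 in the other 3 of 1 dpn, although the fetal samples spread from 0.384 to 6.83. For PDK4 the ratios were 4.00 to 5.18 in the 3 samples and 2.23 to 4.06 in the other 3 of 1 dpn, and the fetal samples, at 4.06 to 5.47, reached as high. Ratios at 28 dpn and 188 dpn were 2.88 to 4.37 and 2.52 to 4.00. The 3 samples thus lay above all others for ANGPTL4 alone. Where on each transcript a probe set lies was not used here, and the part of RNA length in these ratios was not tested.

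**Figure D2:**
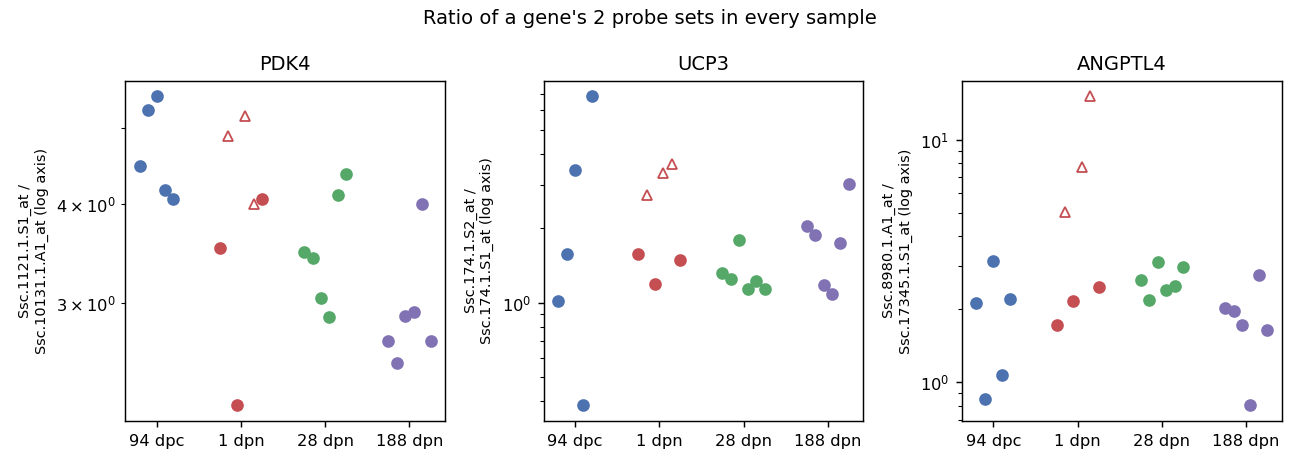
Signal of the brighter probe set divided by that of the dimmer one (log axis) for PDK4, UCP3 and ANGPTL4 in each sample, by stage. Open triangles mark the 3 samples of 1 dpn with a low GAPDH ratio, whose ANGPTL4 ratios of 5.01 to 15.0 lie above all other samples.

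Without these 3 samples, the difference between 94 dpc and 1 dpn by the brighter probe sets was 4.31 for PDK4, 3.22 for UCP3 and 3.05 for ANGPTL4. The dimmer probe sets then gave 4.68, 3.36 and 2.66, so that ANGPTL4's 2 probe sets, 2.54 and 1.25 over all samples, came closer to each other. From 1 dpn to 28 dpn PDK4 gave -0.49 and UCP3 0.68 without the 3 samples (0.79 in place of 1.46 by the dimmer UCP3 probe set), and ANGPTL4 turned from 0.38 to -0.14, and from 0.95 to -0.45 by its second probe set. ANGPTL4 thus had no settled direction between 1 dpn and 28 dpn.

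How far animals of the same age differed was not part of the choice of genes. At 188 dpn the SD of log2 signal was 0.87 for PDK4, 0.87 for UCP3 and 0.70 for ANGPTL4, by their brighter probe sets. These were larger than the SD of 96.7%, 96.6% and 93.4% of the array's probe sets with an above-median mean, at that stage. The dimmer probe sets gave 1.04 for PDK4 (98.4%) but 0.50 for both UCP3 (85.3%) and ANGPTL4 (85.6%). At 1 dpn the SDs of the brighter probe sets were 0.67 for PDK4, 0.42 for UCP3 and 0.75 for ANGPTL4, larger than 75.8%, 39.0% and 82.2% of those probe sets. At 28 dpn PDK4 still had an SD of 0.81, larger than 97.2% of those probe sets, whereas UCP3 (0.19, 24.7%) and ANGPTL4 (0.22, 31.7%) were among the more even. Replicate 4 gave the lowest signal of the 188 dpn pigs for all 3 genes: 5929 for PDK4, 786 for UCP3 and 192 for ANGPTL4.

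Whether the genes varied together among animals of the same age was tested after subtracting each stage's mean. UCP3 and ANGPTL4 passed the test: Pearson's r was 0.671 over 23 samples (adjusted p = 0.00519 by 100000 permutations within stages, two-sided, adjusted over the 3 pairs) and Spearman's rho was 0.600 (adjusted p = 0.0244). Without the 2 samples farthest from the median of UCP3, replicate 4 of 94 dpc and replicate 4 of 188 dpn, r was 0.447 (permutation test, adjusted p = 0.234). The relation thus did not pass without those animals. Leaving out any 1 sample gave 0.562 to 0.739, and leaving out the 3 samples of low GAPDH ratio 0.701 (permutation test, adjusted p = 0.026). By other probe sets r was 0.720 and 0.646 with the dimmer UCP3 probe set but 0.099 for the brighter UCP3 with the dimmer ANGPTL4 probe set. Both dimmer probe sets were lower in the 3 samples of low GAPDH ratio than in the other 1 dpn samples. The r values of other probe sets were not computed without those 3 samples, so their part in them is not known.

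No relation of PDK4 passed over all stages. Its r was 0.282 with UCP3 (permutation test, adjusted p = 0.346; rho 0.173, adjusted p = 0.635) and 0.110 with ANGPTL4 (adjusted p = 0.644; rho 0.113, adjusted p = 0.635). Without the 2 farthest samples these were 0.150 and -0.066. With the 3 samples of low GAPDH ratio left out, r was 0.444 with UCP3 (adjusted p = 0.0743) and 0.498 with ANGPTL4 (adjusted p = 0.0633), by the same permutations.

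Within single stages of 6 samples, exact permutation tests were adjusted over 9 values. At 188 dpn all 3 coefficients were positive. Pearson's r was 0.954 for UCP3 with ANGPTL4 (exact p = 0.00278, adjusted 0.025; rho 0.943, adjusted p = 0.15), 0.846 for PDK4 with ANGPTL4 (adjusted exact p = 0.0667) and 0.818 for PDK4 with UCP3 (adjusted exact p = 0.12). Of the 9 values, the first alone passed, and by Pearson's r only. Without the 2 farthest samples of 188 dpn these 3 coefficients were 0.934, 0.704 and 0.867, over 4 samples each. At 1 dpn PDK4 gave -0.862 with UCP3 (adjusted exact p = 0.0667) and -0.738 with ANGPTL4 (adjusted exact p = 0.144). At 28 dpn these were -0.402 (adjusted exact p = 0.474) and -0.809 (adjusted exact p = 0.12). None of these 4 passed, and 2 of them turned without the 2 farthest samples of the stage: PDK4 with ANGPTL4 at 1 dpn became 0.870 and PDK4 with UCP3 at 28 dpn became 0.563, over 4 samples each. The sign of a relation of PDK4 within these stages was therefore not settled. UCP3 and ANGPTL4 gave 0.372 at 1 dpn (adjusted exact p = 0.474; -0.526 without the 2 farthest) and 0.641 at 28 dpn (adjusted exact p = 0.229).

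**Figure D3:**
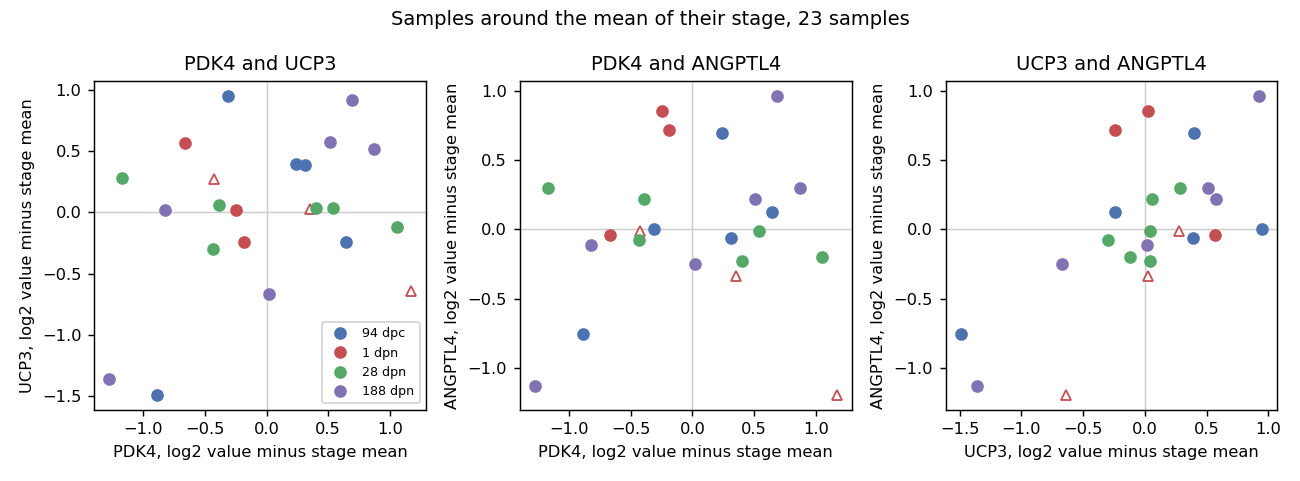
Log2(signal + 16) minus the mean of its stage for each pair of PDK4, UCP3 and ANGPTL4, by their brighter probe sets, 1 point per sample (n = 23) and coloured by stage. Open triangles are the 3 samples of 1 dpn with a low GAPDH ratio; r is 0.671 for UCP3 with ANGPTL4, and 0.282 and 0.110 for PDK4 with UCP3 and with ANGPTL4, which did not pass the test.

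The genes most like each member were read from Pearson's r of log2 signal among 4962 brighter genes, as a description over 23 samples that share their 4 stages. PDK4 was most like CEBPB, a transcription factor (0.945), ATP2A1, the calcium pump of fast muscle (0.920), and LPIN1, a phosphatidate phosphatase that also serves as a coactivator (0.913), followed by CKMT2 (0.910) and TOMM22 (0.909). CEBPB was also near the top when stage means were subtracted (0.782), behind EFHD1 (0.790) alone. PIAS1 (0.723), C17H8orf4 (0.721) and SYPL1 (0.709) came next.

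UCP3 was most like PPTC7, a mitochondrial phosphatase (0.932), ATP2A1 (0.929), RAB7A (0.925), catalase (CAT, 0.923) and carnitine acetyltransferase (CRAT, 0.918). With stage means subtracted, the gene most like UCP3 among all 4962 was ANGPTL4 (0.671), just ahead of KLF11 (0.670), LIPA, the lysosomal acid lipase (0.637), ENPP2 (0.606) and SUOX (0.603). ANGPTL4 was most like malate dehydrogenase MDH2 (0.900), MPI (0.883), the aspartate aminotransferase GOT1 (0.880), the isocitrate dehydrogenase subunit IDH3A (0.864) and CYP19A3 (0.861). With stage means subtracted these were SUOX (0.812) and LIPA (0.810), then RPA2 (0.762), RFC3 (0.745) and TRIM44 (0.743). In this last ranking, by likeness to ANGPTL4, UCP3 was at place 23. Among the genes ranked by likeness to PDK4, UCP3 was at place 38 (0.865) and ANGPTL4 at place 450 (0.635).

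The other genes of these pathways were taken from 7 lists, without the 3 members, and tested with limma in 1 fit over all 23 arrays, with p-values adjusted over 23999 probe sets and called under 0.05. Each gene is represented by its probe set of highest mean. Counts are to be read against all 6765 genes: of these, 13.7% were called higher and 19.5% lower at 1 dpn than at 94 dpc, 13.5% and 10.7% at 28 dpn than at 1 dpn, 5.79% and 12.5% at 188 dpn than at 28 dpn, and 19.5% and 27.6% at 188 dpn than at 94 dpc. The median difference of all genes was -0.06, 0.02, -0.06 and -0.08. The balance depends on the scaling: of the probe sets called at birth 31.2% were higher, but 47.3% after quantile normalization and 59.4% with arrays centred on their median, which moved the median of all probe sets from -0.11 to 0.04 and 0.17. For 188 dpn against 94 dpc the shares were 36.3%, 48.8% and 56.9% and the medians -0.08, 0.08 and 0.22, and for 188 dpn against 28 dpn the shares were 33.7%, 42.5% and 46.6%.

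Marker genes of cell types moved over the same step. From 94 dpc to 1 dpn the summed signal of 6 measured of 8 fibroblast markers went from 40647 to 59001 down to 10485 to 29510, with no overlap. That of 7 measured of 8 endothelial markers went from 9131 to 15130 down to 3419 to 5485, also with no overlap. Among these the mean of VWF went up, from 518 to 625, while the means of the other endothelial markers went down. The 10 skeletal muscle markers summed to 303956 to 361538 before birth and 359360 to 614199 at 1 dpn, 454130 to 768271 at 28 dpn and 640585 to 835237 at 188 dpn. In this sum MYH2, a myosin isoform, had a mean of 6684 at 1 dpn and 76921 at 28 dpn. In that step the means of the other muscle markers also rose, except that of TNNC2. After 1 dpn the fibroblast sum was 13473 to 32466 and 9904 to 15895, and the endothelial sum 6424 to 9165 and 2738 to 4141. No marker of these 3 lists was at 0 at any stage. The part of cell type shares in the differences of the 3 genes and of the lists was not tested.

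Around pyruvate dehydrogenase, the target of PDK4, genes of the complex and of pyruvate entry rose from 94 dpc to 1 dpn. Of 11 measured of 18 genes, 6 rose and 0 fell from 94 dpc to 1 dpn (median 0.61; 0.22 after quantile normalization, and 0.88 with 7 and 0 without the samples of low GAPDH ratio), among them MPC2, a subunit of the mitochondrial pyruvate carrier, by 2.36 ± 0.19 from 6516 ± 1335 to 33731 ± 7643 (adjusted p = 1.5e-08). DLD and DLAT, the dihydrolipoyl dehydrogenase and acetyltransferase subunits, rose by 1.26 ± 0.22 and 1.01 ± 0.20, and PDHA1, the catalytic subunit that PDK4 phosphorylates, by 1.17 ± 0.31 (adjusted p = 0.0071). With the samples of low GAPDH ratio left out PDHA1 rose by 1.93. At 28 dpn MPC2 had fallen by 1.26 ± 0.19 and lactate dehydrogenase LDHA had risen by 2.15 ± 0.42; in all 2 genes rose and 1 fell, and 1 rose and 3 fell without the samples of low GAPDH ratio.

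PDK3, another kinase of the complex, had a course of its own. Its signals ran from 97.3 to 289 in the fetuses, from 40.8 to 128 at 1 dpn, from 99.999 to 214 at 28 dpn and from 347 to 629 in the oldest pigs. It was not called at birth (-0.67 ± 0.29, adjusted p = 0.092, or 0.0479 without replicate 4 of 94 dpc and 0.0491 without the dimmer probe sets), where PDK4 had its largest step. It rose from 28 dpn to 188 dpn by 1.52 ± 0.27 (adjusted p = 4.9e-04), with no overlap of the samples. In that last step 2 of the 11 genes rose and 1 fell (2 and 4 without the samples of low GAPDH ratio, and 3 fell without replicate 2 of 1 dpn alone), and from 94 dpc to 188 dpn 7 rose and 0 fell (median 0.87). Over that span 1 fell after quantile normalization, without the samples of low GAPDH ratio, or without any 1 of replicates 1, 4 and 5 of 1 dpn, replicates 3 and 4 of 188 dpn and replicate 3 of 94 dpc.

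UCP2, the relative of UCP3 whose gene is its neighbour in the RefSeq annotation of Sscrofa11.1, was lower in the oldest pigs than in the fetuses. Its signals were 223 ± 90.7 (SD, n = 5) in the fetuses and 126 ± 66.6, 54.0 ± 53.9 and 52.3 ± 48.0 at the later ages (n = 6 each). UCP2 fell by 2.02 ± 0.52 from 94 dpc to 188 dpn (adjusted p = 0.0032, 4.06-fold), with all samples at 188 dpn below those at 94 dpc. None of its steps between successive stages was called (adjusted p 0.25, 0.11 and 0.999), though that from 1 dpn to 28 dpn was without replicate 1 of 1 dpn (0.029) or replicate 4 of 28 dpn (0.0454).

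Of the 8 measured of 11 uncoupling proteins and related carriers, 3 rose and 1 fell at birth (median 0.10). The counts were the same without the samples of low GAPDH ratio (median 0.32) and with arrays centred on their median (0.37), and 2 fell after quantile normalization (0.36) or without replicate 1 of 1 dpn. SLC25A4, the ADP/ATP carrier of muscle, rose by 1.31 ± 0.15, and SLC25A11, the oxoglutarate carrier, by 1.82 ± 0.24, while SLC25A14, a carrier of the same family, fell 2.30-fold (adjusted p = 0.0028) and rose again by 1.26 ± 0.27 to 28 dpn. SLC25A6, another ADP/ATP carrier, fell from 28 dpn to 188 dpn by 1.39 ± 0.17 (adjusted p = 8.8e-06). UCP3 was 2.17-fold higher at 188 dpn than at 28 dpn. In that step 0 of these 8 genes rose and 3 fell, against 5.79% and 12.5% of all genes. With 8 genes, 0 rising is near that share. The number that fell was 1 with arrays centred on their median, without replicate 2 of 188 dpn or without replicate 5 of 28 dpn.

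In the system on which ANGPTL4 acts, lipoprotein lipase itself had small differences. LPL signals were 1009.9 ± 68.7 in the fetuses and 1635.5 ± 367, 1217 ± 228 and 928 ± 259.8 at the 3 later ages. It rose by 0.65 ± 0.21 at birth (adjusted p = 0.023), a call that was lost without replicate 4 of 94 dpc (adjusted p = 0.0535), without replicate 4 of 1 dpn (0.053) or in a fit of both stages alone (0.054). Its later steps were -0.41 ± 0.20 each and were not called. ANGPTL2, another angiopoietin-like gene, was called in none of the 4 comparisons, with signals of 114 to 135 as stage means.

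Of the 18 measured of 29 genes of the lipase system and of lipid uptake, 6 rose and 1 fell at birth (median 0.26). The number that fell was 0 after quantile normalization, with arrays centred on their median (median 0.53), without the samples of low GAPDH ratio (7 rose, median 0.21), or without any 1 of replicates 3, 4 and 5 of 1 dpn and replicates 1 and 4 of 94 dpc. PNPLA2, the triglyceride lipase inside cells, rose by 2.93 ± 0.23 from 2069.8 ± 219 to 16572 ± 5768 (adjusted p = 7.0e-09), and FABP3, the fatty acid binding protein of muscle, by 2.53 ± 0.31. To 28 dpn PNPLA2 fell by 1.17 ± 0.22 and VLDLR, a receptor of triglyceride-rich lipoproteins, rose by 1.35 ± 0.21. From 28 dpn to 188 dpn, where ANGPTL4 was 2.75-fold lower, 2 of the 18 fell, FABP4 by 1.14 and FABP5 by 0.89. This count is close to the share of all genes called lower in that step, 12.5%. In that step 1 gene, APOC3, rose, a call lost without replicate 6 of 188 dpn (adjusted p = 0.0634) or replicates 4 or 5 of 28 dpn (0.0623 and 0.0733), and 2 rose without replicate 1 of 28 dpn. FABP4 is also a marker of fat cells: the summed signal of 9 measured of 12 fat cell markers was 6516 to 9879.5 at 94 dpc, 7898 to 23609.9 at 1 dpn, 10463 to 18767 at 28 dpn and 7864 to 14986 at 188 dpn, with none at 0 and ADIPOQ at 44.4 to 256 throughout. The sum includes FABP4 itself, and FABP4 and CFD were its brightest members. From 94 dpc to 188 dpn the mean of FABP4 went from 4690 to 2848 and that of CFD from 2391 to 6506. The part of fat cells in the course of ANGPTL4 was not tested.

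Of the PPAR receptors, PPARA was called in none of the 4 comparisons, and the calls of PPARD and PPARG depended on the setting. In order of age, stage means were 56.4, 61.5, 27.6 and 39.6 for PPARA and 109, 46.5, 110 and 34.6 for PPARG. All of these lay below the lowest median signal of an array, 121. The lack of a call for PPARA and the differences of PPARG thus rest on dim signals. PPARGC1A, a coactivator of PPARs, was not called either and had stage means of 546, 531, 516 and 530.7. PPARD gave 324 ± 162 in the fetuses and then 569 ± 184, 321 ± 198 and 289 ± 128, with 0.85 ± 0.35 at birth (adjusted p = 0.078). PPARD was called there after quantile normalization (1.14, adjusted p = 0.0196), with arrays centred on their median (1.12, 0.0215), with trend and robust options (0.0491), without the dimmer probe sets (0.0418), and without replicate 1 of 1 dpn (0.0434), replicate 2 of 28 dpn (0.0462) or replicate 4 or 5 of 94 dpc (0.0478 and 0.041). From 1 dpn to 28 dpn it was not called, but it was called lower with trend and robust options (0.0442), without the dimmer probe sets (0.0361), and without replicate 1 of 1 dpn (0.0382) or replicate 2 of 28 dpn (0.0153). PPARG was called in 1 comparison, 1.51 ± 0.51 lower at 188 dpn than at 94 dpc (adjusted p = 0.021), a call lost without replicate 6 of 188 dpn (0.0537), without replicate 3 of 94 dpc (0.054), with arrays centred on their median (0.0553) or with a pseudocount of 1 (0.0534). Between 94 dpc and 1 dpn PPARG was called without replicate 1 or 6 of 1 dpn (0.0389 and 0.0433), and between 28 dpn and 188 dpn without replicate 5 of 188 dpn, replicate 3 of 28 dpn or the samples of low GAPDH ratio (0.0322, 0.0424 and 0.0358). Its difference at birth was -1.28, and -0.53 without the samples of low GAPDH ratio, called in neither. Of 19 measured of 27 receptors, partners and coactivators, 2 rose and 3 fell at birth (median -0.11). After quantile normalization 3 rose and 1 fell (median 0.10), and with arrays centred on their median 4 rose and 0 fell (0.17). Without the samples of low GAPDH ratio 1 rose and 4 fell (-0.18). Without replicate 3 of 94 dpc 1 rose and 1 fell, and 1 rose without replicate 2 or 4 of 1 dpn, replicate 6 of 28 dpn or replicate 1 or 2 of 94 dpc. LPIN1 rose by 2.76 ± 0.37 at birth, and RXRG, a partner of the PPARs, by 1.96 ± 0.29 from 1 dpn to 28 dpn (adjusted p = 4.9e-05).

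Of the other PPAR targets, those of fatty acid oxidation, most were higher at 1 dpn than at 94 dpc, as the 3 genes were, but from 28 dpn to 188 dpn, where PDK4 and UCP3 were higher, those called all fell. Of 26 measured of 39, 18 rose and 0 fell from 94 dpc to 1 dpn (median 1.12; 19 and 0 without the samples of low GAPDH ratio). CPT1B, the muscle enzyme that admits long-chain fatty acids to mitochondria, rose by 2.90 ± 0.21 (7.47-fold, adjusted p = 2.5e-09), ACADVL by 2.81 ± 0.22, CRAT by 2.45 ± 0.19 and HADHB by 2.24 ± 0.18. From 1 dpn to 28 dpn 4 rose and 6 fell, with CPT1B down by 1.68 ± 0.20 and ACADVL by 1.58 ± 0.21; without the samples of low GAPDH ratio 1 rose and 7 fell, and 2 rose without replicate 4 or 5 of 1 dpn or replicate 1, 2 or 4 of 28 dpn.

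From 28 dpn to 188 dpn 0 of the 26 rose and 9 fell (median -0.50). CPT1B fell by 1.07 ± 0.20, ECI1, an isomerase of unsaturated fatty acids, by 1.23 ± 0.19 and SLC22A5, the carnitine transporter, by 1.33 ± 0.29 (adjusted p = 0.0031). CPT1B signals had a mean of 1023 in the fetuses and of 7722, 2344 and 1112 at the later ages, and the difference between the oldest pigs and the fetuses was 0.15 ± 0.21 (adjusted p = 0.62), where PDK4 was 34.7-fold higher and UCP3, whose fetal signals cannot be told from background, lay above all fetal samples. CRAT, by contrast, stood at 9620.5 at 28 dpn and 9935 at 188 dpn. Between 94 dpc and 188 dpn 11 of the 26 rose and 0 fell. The number that fell from 28 dpn to 188 dpn was 6 with arrays centred on their median.

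Among 17 measured of 23 genes of the glucocorticoid and fasting response, 8 rose and 1 fell at birth (median 1.23). Without the samples of low GAPDH ratio 8 rose and 2 fell, and the median was 0.64. Over all samples the 1 that fell was NR3C1, the glucocorticoid receptor. Its log2 difference was -3.28 (limma, adjusted p = 6.6e-05), and -2.21 without the samples of low GAPDH ratio. NR3C1 signals at 1 dpn were 7.85 to 275, in part below the 16 added before taking logs. FKBP5, a chaperone induced by glucocorticoids, rose by 3.85 ± 0.48 (adjusted p = 3.3e-06), and by 3.05 without the samples of low GAPDH ratio; CEBPD rose by 2.34 ± 0.42 (1.69 without them) and KLF9 by 2.37 ± 0.34 (1.60 without them). The 5 that fell and 1 that rose to 28 dpn were 1 and 0 without those samples, and 8 fell without replicate 1 of 1 dpn. From 28 dpn to 188 dpn 5 rose and 1 fell (median 0.46), with FBXO32, a muscle ubiquitin ligase, up by 2.47 ± 0.51, KLF15 by 1.25 ± 0.33 and the glutamine synthetase GLUL by 1.28 ± 0.28. CEBPB, the gene most like PDK4, had stage means of 1698 ± 595, 7099 ± 3663, 6396 ± 1787 and 12651 ± 3460.

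Genes of glucose uptake and use split by direction. Of 19 measured of 27, 5 rose and 3 fell at birth (median 0.29), 6 rose and 1 fell to 28 dpn, 2 rose and 4 fell from there to 188 dpn, and 9 rose and 6 fell between 94 dpc and 188 dpn (median 0.55). Without the samples of low GAPDH ratio 7 rose and 1 fell at birth (median 0.45), and 4 rose and 1 fell to 28 dpn. At birth 5 rose and 2 fell after quantile normalization (median 0.16), and 7 and 2 with arrays centred on their median (0.56). From 28 dpn to 188 dpn 1 rose without replicate 2 or 3 of 188 dpn or replicate 6 of 28 dpn. Over the whole span 9 rose and 4 fell under both other scalings. The muscle phosphofructokinase PFKM rose by 3.66 ± 0.31 over that span (adjusted p = 2.5e-09), while SLC2A1, a glucose transporter found in most tissues, fell by 3.02 ± 0.32. HK1, the hexokinase of most tissues, fell by 1.06 ± 0.19 from 28 dpn to 188 dpn.

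**Figure D4:**
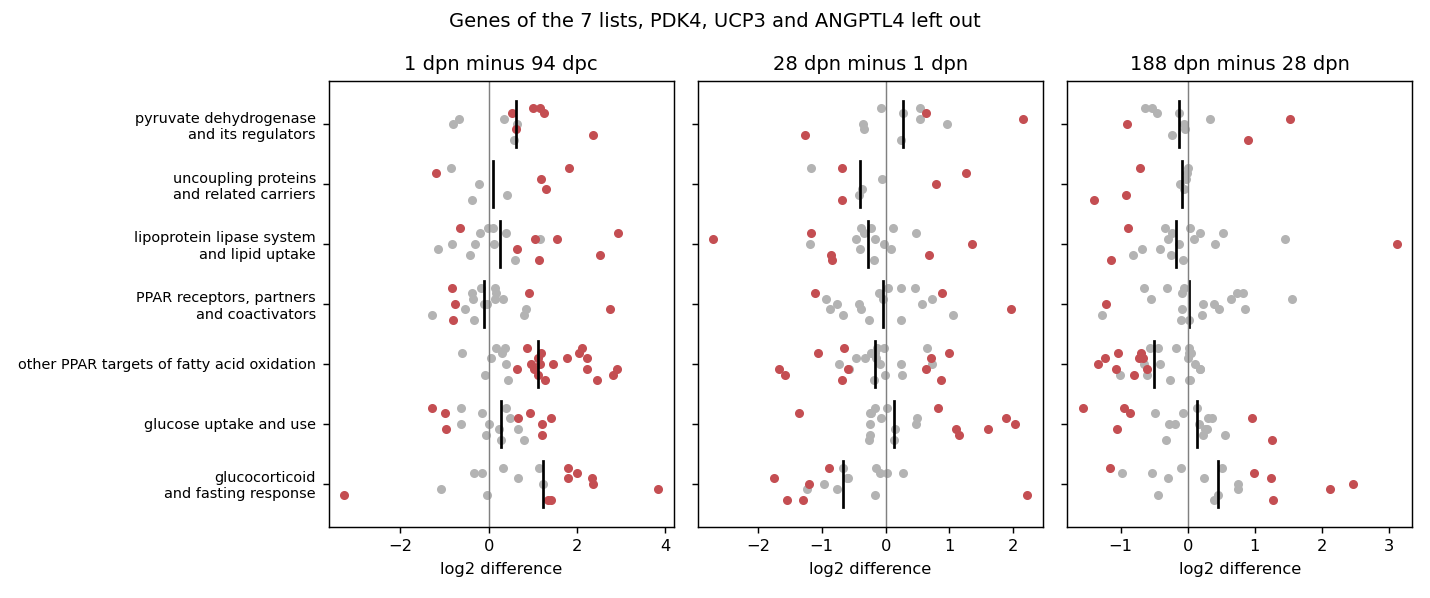
Log2 difference of each measured gene of the 7 lists (PDK4, UCP3 and ANGPTL4 left out) for 1 dpn minus 94 dpc, 28 dpn minus 1 dpn and 188 dpn minus 28 dpn; red points were called at an adjusted p under 0.05 by limma, grey points were not, and black bars are list medians. The PPAR targets of fatty acid oxidation lie mostly to the right in the first panel (median 1.12) and mostly to the left in the last (median -0.50).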

How the data were processed

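The deposited file holds intensities: for each array, a linear signal of every probe set. The submitters' processing notes name GCOS 1.1.1. How signals were summarised and background was corrected is not given in the sources used here. Detection calls were not used here, so no probe set is called absent. The 2% trimmed mean was nearly equal on all arrays, from which the deposited signals were taken as scaled to 1 target. Such scaling ties every probe set of an array to all others. Per the labels' protocols, cRNA was made from 0.5 ug of total RNA. Replicate numbers follow accession order.

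A platform table gave 10099 probe sets 1 symbol, 198 several and 13826 none, and 9989 of the first had an Entrez identifier in the RefSeq gene table (Sscrofa11.1), with 0 symbols differing. The 124 control probe sets were left out of tests. Log2(signal + 16) was fitted with 1 mean per stage by lmFit and eBayes of limma 3.58.1 (R 4.3.3), two-sided, with Benjamini-Hochberg adjustment over 23999 probe sets. Before adjustment 8696, 6981, 6174 and 10584 probe sets had p under 0.05 in the 4 comparisons (the 3 successive steps of age, then 188 dpn against 94 dpc). On simulated data in which 100 probe sets changed by 1 on the log2 scale and 100 by 2, 34 and 79 were recovered for 1 dpn against 94 dpc with 8 false calls. For the other comparisons these were 37, 89 and 4, then 36, 85 and 8, then 27, 82 and 3. The simulated samples were independent, whereas animals of a stage can share a dam. Far fewer probe sets changed in them than were called in the data, 6223 for 1 dpn against 94 dpc. The numbers recovered and the false calls therefore need not hold for the data.

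The members, the lists, the samples of low GAPDH ratio (under 0.5) and the tests were chosen with earlier results of these data known. Named genes were the members, the 4 called genes of each list and comparison with the largest difference, the 5 genes most like each member and the close relatives of the members where measured; genes named by the rule in 1 comparison were followed through the others, and a selection of all these is printed. Correlations used Python 3.11.15 with scipy 1.17.1. The alternatives were quantile normalization, median centring, pseudocounts of 1 and 64, leaving out the dimmer probe sets, a fit of 2 stages alone, trend and robust options of eBayes, each gene's other probe set, and leaving out each sample or the samples of low GAPDH ratio.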

Additional observations from a re-analysis of the deposited data

Results flagged for a closer look

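UCP3 at 94 dpc had 1 fetus far from the others by its dimmer probe set, Ssc.174.1.S1_at: replicate 1 gave a signal of 66.5, while the other 4 gave 15.6 to 23.8. The gap to the nearest of the others was 0.759 of the whole range on the log2 scale. The brighter probe set did not set this animal apart, with 67.4 in replicate 1 and 66.8 in replicate 3. Of 24 groups of samples examined in this way (6 probe sets at 4 stages) this was the only 1, and chance marks about 1 in 20.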

How the results depend on the processing

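No difference of a member between stages changed its sign in any setting but 1: without the 3 samples of low GAPDH ratio ANGPTL4 turned between 1 dpn and 28 dpn. Quantile normalization and median centring moved each difference by less than the spread between animals. Values of the brighter probe sets that moved further came from the gene's other probe set or another pseudocount. By its other probe set ANGPTL4 differed by 1.25, 0.95 and -0.84 over the 3 successive steps, and UCP3 by 1.46 from 1 dpn to 28 dpn. With a pseudocount of 64 the UCP3 difference at birth was 2.36. Leaving out 1 sample gave, for the 4 comparisons in the order above, 4.45 to 4.84, -1.07 to -0.62, 1.06 to 1.55 and 4.90 to 5.37 for PDK4. For UCP3 it gave 2.73 to 3.34, 0.67 to 0.91, 0.93 to 1.39 and 4.65 to 5.29, and for ANGPTL4 2.35 to 2.78, 0.14 to 0.55, -1.65 to -1.24 and 1.26 to 1.68.

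The stage-centred correlation of PDK4 with ANGPTL4 was -0.738 at 1 dpn alone, -0.809 at 28 dpn alone, -0.066 without the 2 farthest samples and -0.122 to 0.393 with 1 sample left out, negative only without replicate 4 of 188 dpn. That of PDK4 with UCP3 was -0.862 and -0.402 in the first 2 of these settings and 0.0794 to 0.423 with 1 sample left out. That of UCP3 with ANGPTL4 lost its call at 1 dpn alone (0.372), at 28 dpn alone (0.641) and without the 2 farthest samples (0.447), and ran from 0.562 to 0.739 with 1 sample left out.

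Fitting only 1 dpn and 28 dpn called 2453 probe sets where all stages together called 4121, and 22 list genes where they called 39. Leaving out 1 sample gave 5139 to 6250, 3376 to 4719, 2793 to 3645 and 8034 to 9089 probe sets and 51 to 62, 30 to 45, 24 to 39 and 55 to 64 list genes. No list gene tracked under these settings reversed. Each gene was counted once per comparison and setting. Whether it was called stayed the same 2922 times with 1 sample left out and 989 times under other settings. A call was gained 13 and 8 times and lost 101 and 40 times. No paired analysis was possible because the labels give the stages no shared replicate numbers. Without detection calls, fetal signals of UCP3 cannot be told from background.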

Other observations

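SUOX, sulfite oxidase, and LIPA, the lysosomal acid lipase, were the genes most like ANGPTL4 among animals of the same age (r of 0.812 and 0.810 over 23 samples, a description), and both were also among the 5 most like UCP3 in that respect (0.603 and 0.637). ATP2A1 was likewise among the 5 genes most like PDK4 (0.920) and UCP3 (0.929) over all samples. No gene was among the 5 most like PDK4 and also among the 5 most like ANGPTL4, whether over all samples or with stage means subtracted.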
